A study of Mus musculus with 24 samples.

Results

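The genes described here encode the proteins that coat lipid droplets and the lipases that empty them, together with the cofactor and the inhibitor of the first lipase. The set was fixed by name and held 10 genes (Plin1, Plin2, Plin4, Plin5, Cidec, Pnpla2, Lipe, Mgll, Abhd5 and G0s2) of 52089 gene symbols in the deposited table. The table lists several transcript entries for most genes, and each gene was read from 1 of them, the RefSeq messenger entry with the highest mean over the 24 libraries. All 10 genes had such an entry, and all 10 passed the filter on low values in every comparison. The cells were primary brite adipocytes, that is, white fat cells driven towards a heat-producing state, differentiated in culture from stromal vascular cells of inguinal fat taken from 129SvEv mice. All groups had received rosiglitazone, an agonist of the nuclear receptor PPARγ, during differentiation. A gapmer with locked nucleic acid ends, which directs RNase H to a matching transcript, was introduced by transfection at 50 nM on the first day of differentiation after induction. It was directed either at the long noncoding RNA Ctcflos (group KD) or at no known transcript (group NC, the nontargeting control). RNA was taken 24 h or 72 h later, with 6 libraries of KD and 6 of NC at either time. Untransfected cells are not among the groups, and a gapmer lowers its target without removing the gene.

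Triglyceride in a fat cell is stored in droplets whose surface is covered by perilipins. Plin1 is the main coat of the mature adipocyte droplet, Plin2 covers small droplets in almost every cell type, Plin4 binds nascent droplets, and Plin5 is typical of tissues that burn fat, where it links droplets to mitochondria. Cidec sits at the contact sites of droplets and promotes their fusion. Triglyceride is broken down in sequence by Pnpla2 (adipose triglyceride lipase), Lipe (hormone-sensitive lipase) and Mgll (monoglyceride lipase), which releases the last fatty acid and glycerol. Abhd5 activates Pnpla2 and is held back by perilipins in the resting cell, whereas G0s2 binds Pnpla2 and inhibits it. In brown and brite fat the fatty acids released in this way fuel heat production.

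Libraries held 1391832 (KD 24 h replicate 6) to 5423840 mapped reads, at a median of 3945867, as recovered from the steps in which the deposited values rise. Values are RPKM, read counts divided by transcript length and by library total, scaled further between libraries by a trimmed mean of log ratios (scaled RPKM). NC 72 h replicates 2 and 3 differed by less than the sampling noise, and their mean was used as 1 sample (NC 72 h, n = 5). Of the entries of Ctcflos, AK079954 was at 0.00 to 0.83 RPKM in KD 24 h against 0.67 to 2.87 in NC 24 h, so that these groups overlapped. At 72 h it was at 0.00 to 0.98 in KD against 1.48 to 3.86 in NC. AK041254, another transcript of the gene, was at 0.00 to 1.03 in KD 24 h against 0.17 to 0.85 in NC 24 h, and at 0.00 to 0.53 in KD 72 h against 0.12 to 2.48 in NC 72 h, so that its groups overlapped at both times. These values rest on few reads, since 3 reads of a 2 kb entry were worth 0.28 to 1.08 RPKM by library. AK041254 was at 0 in 3 of 6 KD 24 h samples and 4 of 6 KD 72 h samples. The labels do not name the transcript that was targeted. The study lists AK041254 as transcript 1 and AK079954 among transcripts 3 and 4. It states that its transcriptome work concentrated on transcript 1. By deviations from the group means of genes other than the members, 15 samples formed a larger cluster and 8 a smaller one, the latter with 2 samples of every group. The smaller cluster comprised KD 24 h replicates 3 and 4, NC 24 h replicates 5 and 6, KD 72 h replicates 5 and 6 and NC 72 h replicates 4 and 5. The labels name no batch that corresponds to it, and values within the clusters are given beside the members whose calls they change. Both clusters were drawn from the spread of these same libraries. Calls and adjusted p-values within a cluster are therefore descriptions and no independent tests. The summed level of 5 adipocyte markers (Adipoq, Fabp4, Pparg, Cebpa and Lpl) was 48241 to 50795 scaled RPKM in NC 24 h and 35071 to 47883 in KD 24 h, and 34946 to 46234 in NC 72 h and 24226 to 33042 in KD 72 h. Fabp4 made up most of that sum, at means of 45324 in NC 24 h, 39890 in KD 24 h, 37771 in NC 72 h and 25220 in KD 72 h. Fabp4 itself was not called at 24 h. Brite markers (Ucp1, Cidea, Cox7a1, Elovl3 and Ppargc1a) summed to 457 to 889 in NC 24 h, 326 to 476 in KD 24 h, 1254 to 2121 in NC 72 h and 380 to 722 in KD 72 h. Of the 5, 4 and 5 were called lower at 24 h and 72 h, against 11.6% and 13% of all symbols tested. Of 5 mesothelial and epithelial markers only Krt19 was tested. It was higher in KD at both times, and the sum of that list was 19.2 to 26.3 scaled RPKM in NC 24 h, 24.7 to 76.2 in KD 24 h, 19.0 to 28.1 in NC 72 h and 95.2 to 162.8 in KD 72 h, with Upk3b at 0 in all libraries. Macrophage markers summed to 2.6 to 29.8 scaled RPKM over all groups (Csf1r called higher at both times, Lyz2 called lower at 72 h), endothelial ones to 0.19 to 3.03 and skeletal muscle ones to 0.10 to 0.95, with Myod1 and Actn2 at 0 in all libraries. Preadipocyte and stromal markers summed to 380 to 1017 scaled RPKM, and of their 5 genes only Cd34 was called between KD and NC, higher in KD at 72 h, while Thy1 was called higher in NC 72 h than in NC 24 h. The part of the cell mixture in the results below was not tested, and in bulk RNA fewer cells of a type and less RNA per cell cannot be told apart.

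Sequences around the annotated starts are shown for the 4 members that were lower in KD at 72 h and for Plin2, the member that was higher in KD at 24 h. Each window of 300 bases runs from 250 bases before to 50 bases after the start, as given by RefSeq on GRCm38.p6, and lies at chr1:193273139-193273438 (minus strand) for G0s2, chr6:88724162-88724461 (plus) for Mgll, chr7:141454938-141455237 (plus) for Pnpla2, chr17:56117499-56117798 (minus) for Plin5 and chr4:86670010-86670309 (minus) for Plin2. For Mgll and Plin5 the table holds 2 starts, and the one listed first is shown. Capitals mark the GC box GGGCGG and the nuclear receptor half-site AGGTCA on either strand, so that the reverse complements CCGCCC and TGACCT are also in capitals.
G0s2: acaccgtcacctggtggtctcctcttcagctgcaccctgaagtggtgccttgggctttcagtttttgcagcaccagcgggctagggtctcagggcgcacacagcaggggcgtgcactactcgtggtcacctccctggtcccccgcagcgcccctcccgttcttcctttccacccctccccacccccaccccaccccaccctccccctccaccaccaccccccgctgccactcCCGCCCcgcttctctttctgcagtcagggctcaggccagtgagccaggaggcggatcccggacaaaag
Mgll: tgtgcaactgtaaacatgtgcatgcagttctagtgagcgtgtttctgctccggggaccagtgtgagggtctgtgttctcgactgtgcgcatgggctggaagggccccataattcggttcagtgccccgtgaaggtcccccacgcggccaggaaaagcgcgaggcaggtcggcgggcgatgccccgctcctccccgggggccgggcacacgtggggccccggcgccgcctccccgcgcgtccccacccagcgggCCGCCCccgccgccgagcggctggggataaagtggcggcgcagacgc
Pnpla2: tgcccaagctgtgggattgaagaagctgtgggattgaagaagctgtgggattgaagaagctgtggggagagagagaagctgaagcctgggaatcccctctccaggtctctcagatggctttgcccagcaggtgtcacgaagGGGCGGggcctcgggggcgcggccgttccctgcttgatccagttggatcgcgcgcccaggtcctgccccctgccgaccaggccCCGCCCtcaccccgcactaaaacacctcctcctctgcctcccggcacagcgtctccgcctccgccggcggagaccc
Plin5: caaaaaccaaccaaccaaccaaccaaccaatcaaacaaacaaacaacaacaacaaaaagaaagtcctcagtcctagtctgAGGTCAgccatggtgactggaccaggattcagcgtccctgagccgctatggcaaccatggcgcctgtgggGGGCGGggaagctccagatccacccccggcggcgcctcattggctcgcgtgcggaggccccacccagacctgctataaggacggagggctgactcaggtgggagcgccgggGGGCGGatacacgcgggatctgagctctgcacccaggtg
Plin2: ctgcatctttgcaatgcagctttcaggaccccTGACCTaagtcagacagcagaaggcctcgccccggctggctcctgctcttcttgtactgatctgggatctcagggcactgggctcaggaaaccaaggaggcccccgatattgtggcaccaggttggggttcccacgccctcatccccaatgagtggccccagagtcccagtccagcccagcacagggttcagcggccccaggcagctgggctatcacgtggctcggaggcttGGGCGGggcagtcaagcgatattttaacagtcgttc
A GC box was found in each of these 5 windows and in 9 of the 14 windows that the table holds for the members, against 35.7% of all 32851 windows. The half-site was found in Plin5, 170 bases before the start, and in Plin2, 218 bases before it. In all it was present in 4 of the 14 windows of the members and in 16.3% of all windows. The direct repeat AGGTCANAGGTCA, a strict form of the element bound by PPARγ with RXR, was in no member window and in 0.0396% of all windows. These are matches of letters in a short window and no evidence of binding.

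Among the droplet and lipase genes, the fatty acid-releasing Mgll and the lipase inhibitor G0s2 were the members that differed most at 24 h. Both stood in KD at slightly more than 50% of their NC level, Lipe was also lower, and the droplet coat gene Plin2 was higher. Of the 10 members, 3 were called lower and 1 higher in KD 24 h than in NC 24 h (limma, Benjamini-Hochberg adjusted p under 0.05 over all entries tested), where 22.7% of all 52134 entries tested were called, 11.6% lower and 11.1% higher. The median log2 fold change of the members was -0.34, and that of all entries -0.009. At 72 h, Plin5, Pnpla2, Mgll and G0s2 were called lower and no member was called higher, against 22.4% of 54291 entries called, 12.1% lower and 10.3% higher. The median log2 fold change was then -0.43 for the members and 0.008 for all entries. The groups did not overlap for 2 members at 24 h (Mgll and G0s2) and 3 at 72 h (Plin5, Mgll and G0s2), against 11.7% and 14.6% of all symbols tested.

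**Figure D1:**
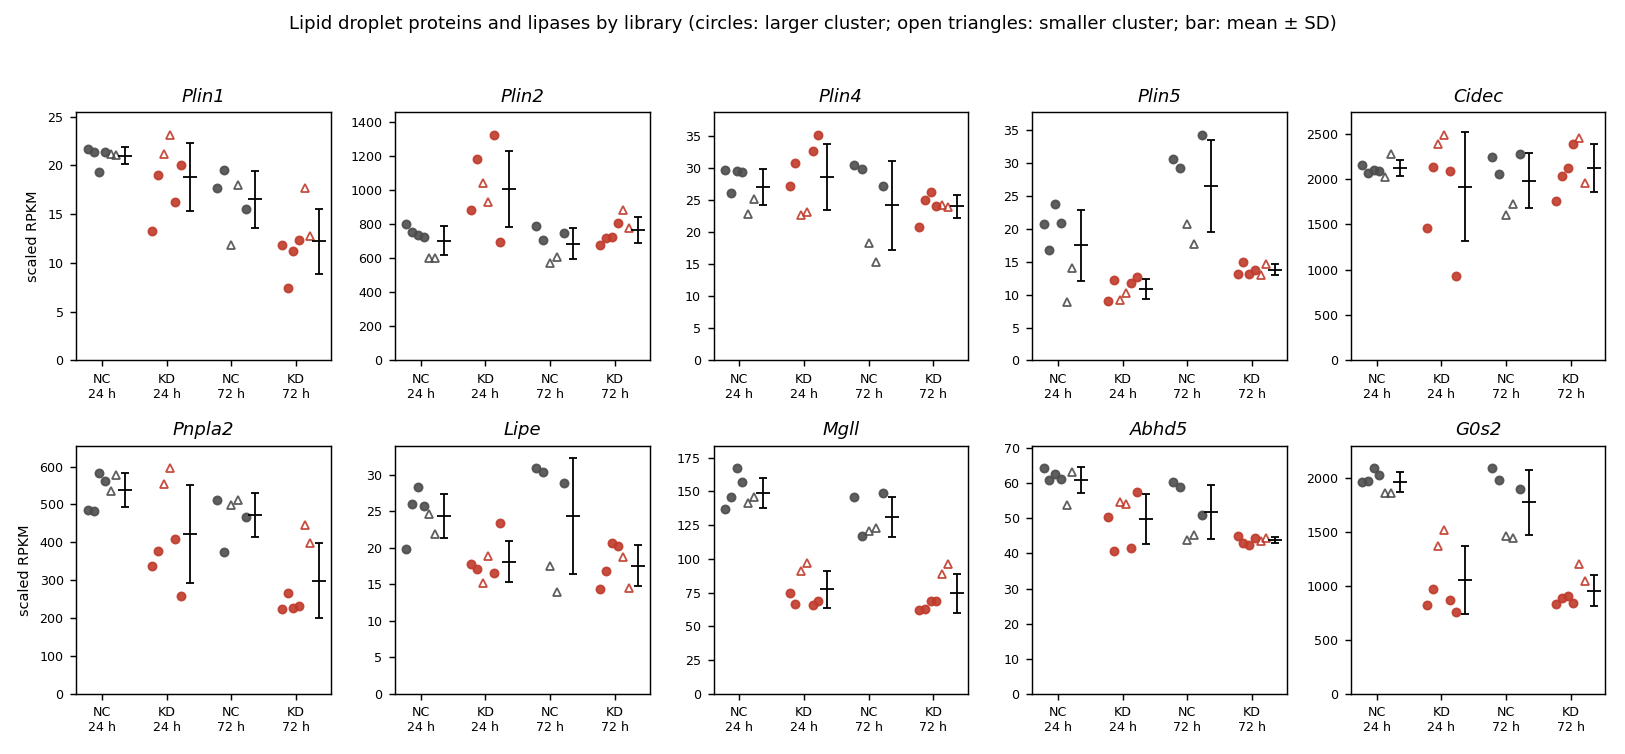
Scaled RPKM of the 10 members (vertical axes, linear and starting at 0) in every library, by group and time, with the mean and SD beside each group. Filled circles are samples of the larger cluster and open triangles those of the smaller one; Mgll and G0s2 show KD samples below all NC samples at both times, and Plin5 at 72 h.

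Plin2 had the highest RPKM of the perilipins. It ranged from 599.9 to 799 scaled RPKM in NC 24 h (median 731) and from 694 to 1321 in KD 24 h (median 984). The highest KD value came from replicate 5 and the lowest from replicate 6, the shallowest library, which lay within the NC range. Plin2 was higher in KD by 0.51 ± 0.14 on the log2 scale (SE; adjusted p = 0.0169). At 72 h its values were 787, 708, 573, 606 and 748 in NC and 675 to 882 in KD (median 751), so that the groups overlapped, and the difference of 0.17 ± 0.10 did not pass the test (adjusted p = 0.257). The difference between the times was not called either (interaction -0.33 ± 0.18, adjusted p = 0.495). Within the clusters the 24 h difference was 0.39 in the larger one (adjusted p = 0.134) and 0.72 in the smaller one. At 72 h it was -0.03 in the larger cluster and 0.50 in the smaller one, where it was called (adjusted p = 0.022).

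Plin5 was among the least abundant members, with 38 to 191 reads per sample. In NC 24 h it ranged from 8.80 to 23.7 scaled RPKM (median 18.7) and in KD 24 h from 9.03 to 12.6 (median 11.0). The 2 NC samples of the smaller cluster were the lowest of their group, at 8.80 and 14.0. The difference of -0.61 ± 0.22 missed the threshold (adjusted p = 0.0555). It passed without NC 24 h replicate 5 (-0.79, adjusted p = 0.00783) or without KD 24 h replicate 6 (-0.66, adjusted p = 0.0374), within the larger cluster (-0.84, adjusted p = 0.00761), with a filter at 30 reads (-0.60, adjusted p = 0.0488) and with RefSeq messenger entries only (-0.60, adjusted p = 0.0442). In the smaller cluster it was -0.18. It missed the threshold by more with the replicate block (-0.61, adjusted p = 0.106) and on the deposited scale (-0.55, adjusted p = 0.0896). When single libraries were left out, the adjusted p reached up to 0.119. At 72 h Plin5 was at 30.6, 29.2, 20.7, 17.7 and 34.2 scaled RPKM in NC, while KD spanned only 13.0 to 14.9 (median 13.4). All KD samples lay below all NC samples. KD had 52.0% of the NC mean, a log2 fold change of -0.89 ± 0.16 (adjusted p = 0.00137). Within the larger cluster the value was -1.18 and within the smaller one -0.46 (adjusted p = 0.181).

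Plin1 and Plin4 showed no called difference. Plin1, the classical coat of the adipocyte droplet, lay between 19.3 and 21.7 scaled RPKM in NC 24 h (median 21.3) and between 13.3 and 23.1 in KD 24 h (median 19.5). At 72 h it was at 17.7, 19.5, 11.8, 18.0 and 15.6 in NC and at 7.38 to 17.7 in KD (median 12.1). The KD values were mostly lower but overlapped with NC, and the difference of -0.45 ± 0.20 was not called (adjusted p = 0.114; without KD 72 h replicate 5, -0.57 and adjusted p = 0.0393). Within the clusters it was -0.72 in the larger (adjusted p = 0.0203) and 0.05 in the smaller one. Only 49 to 209 reads per library stood behind this gene. Plin4 differed by 0.08 (95% interval -0.21 to 0.38) at 24 h and by 0.05 (-0.32 to 0.41) at 72 h. Its group means were 27.1 in NC 24 h, 28.7 in KD 24 h, 24.3 in NC 72 h and 24.1 in KD 72 h. The NC 72 h samples split by cluster, at 30.5, 29.9 and 27.2 in the larger and 18.3 and 15.4 in the smaller one. Within the clusters the 72 h difference was -0.27 in the larger (adjusted p = 0.135) and 0.53 in the smaller one, and neither was called.

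Cidec, which promotes droplet fusion, had the highest mean RPKM of the members and held 2461 to 20546 reads per library. NC 24 h spanned 2016 to 2269.6 scaled RPKM (median 2095) and KD 24 h 929.9 to 2484 (median 2109.9). The medians were close, and the low end of KD was again replicate 6. At 72 h NC had 2246, 2055, 1602, 1723 and 2275 and KD 1755 to 2454 (median 2077). The differences of -0.20 (95% interval -0.61 to 0.20) and 0.11 (-0.15 to 0.36) did not pass the test. On the deposited scale, with no further scaling between libraries, the 72 h difference was 0.36 (adjusted p = 0.0374).

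**Figure D2:**
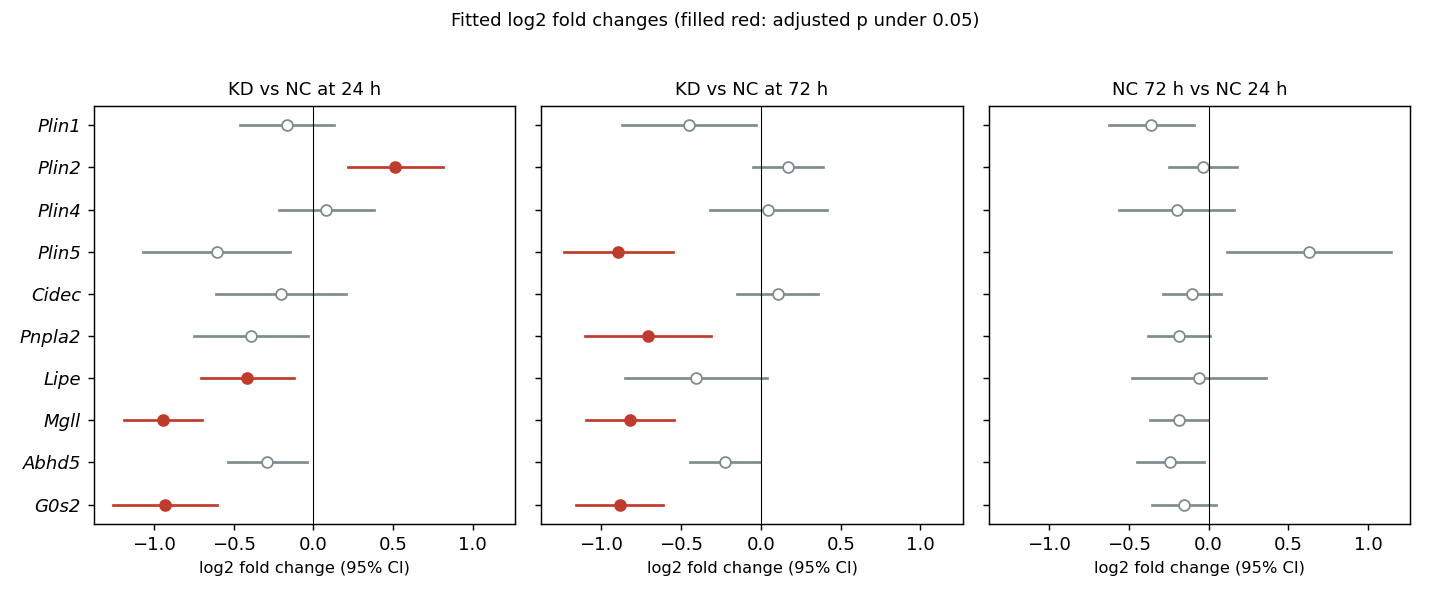
Fitted log2 fold changes of the 10 members with 95% confidence intervals (horizontal axes) for KD against NC at 24 h and 72 h and for NC 72 h against NC 24 h. Filled red points passed an adjusted p of 0.05, which were 4 members in each knockdown comparison and none over time in the control.

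Pnpla2, the lipase that starts triglyceride breakdown, was called at 72 h only. At 24 h it ranged from 482 to 583 scaled RPKM in NC (median 548) and from 257 to 595 in KD (median 392), with a difference of -0.39 ± 0.17 (adjusted p = 0.106). The 2 KD samples of the smaller cluster had the highest values of their group, at 555 and 595, level with NC. Within the larger cluster the difference was -0.63 (adjusted p = 0.0126), and within the smaller one 0.06. Leaving out KD 24 h replicate 3 alone (-0.48, adjusted p = 0.0472) or replicate 4 alone (-0.50, adjusted p = 0.0282) also brought the value past the threshold. At 72 h NC was at 513, 374, 499.7, 510.5 and 467 scaled RPKM and KD at 224 to 446 (median 249). KD overlapped with NC only through its 2 samples of the smaller cluster, at 446 and 399. The fall was -0.71 ± 0.18 (adjusted p = 0.014), with -0.91 in the larger and -0.25 in the smaller cluster (adjusted p = 0.189). It was smaller on the deposited scale (-0.46, adjusted p = 0.115).

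Lipe, the second lipase, ranged from 19.8 to 28.3 scaled RPKM in NC 24 h (median 25.1) and from 15.1 to 23.3 in KD 24 h (median 17.4). It was called lower at 24 h by a narrow margin (-0.41 ± 0.14, adjusted p = 0.0421). The call was lost when any of KD 24 h replicates 1, 2, 3 or 5 or NC 24 h replicates 2, 3, 4 or 5 was left out, at adjusted p-values of 0.0694 to 0.0891 and differences of -0.41 to -0.36. It was also lost on the deposited scale (-0.36, adjusted p = 0.103) and in either cluster, at -0.42 in the larger (adjusted p = 0.0982) and -0.45 in the smaller one (adjusted p = 0.19). At 72 h NC split by cluster, at 30.9, 30.4 and 28.8 in the larger and 17.5 and 13.9 in the smaller one, while KD lay at 14.3 to 20.6 (median 17.8). The 3 NC samples of the larger cluster were above all KD samples and the other 2 were not. The difference over all samples, -0.41 ± 0.21, did not pass the test (adjusted p = 0.179). It was -0.74 within the larger cluster (adjusted p = 0.00439) and 0.08 within the smaller one, and -0.59 without NC 72 h replicate 5 (adjusted p = 0.0368).

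Mgll, which completes the breakdown, was lower at both times in every KD sample. NC 24 h spanned 137 to 167 scaled RPKM (median 146) and KD 24 h 65.8 to 97.0 (median 71.7). At 72 h NC was at 146, 117, 121, 123 and 149 and KD at 62.1 to 96.1 (median 68.9). KD had 51.9% of the NC mean at 24 h and 56.9% at 72 h. The log2 fold changes were -0.94 ± 0.12 (adjusted p = 0.000176) and -0.82 ± 0.13 (adjusted p = 0.000577). In both KD groups the highest values came from the smaller cluster, and within clusters the changes were -1.14 and -0.60 at 24 h and -1.05 and -0.39 at 72 h (larger and smaller cluster), of which that in the smaller cluster at 72 h did not pass the test (adjusted p = 0.0842).

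The inhibitor G0s2 was lower in KD at both times. It ranged from 1858 to 2089.9 scaled RPKM in NC 24 h (median 1966) and from 755 to 1522 in KD 24 h (median 924). At 72 h it was at 2089.8, 1985, 1466, 1440.2 and 1896 in NC and at 837 to 1205 in KD (median 896). No KD sample reached the lowest NC sample at either time. KD had 53.7% of the NC mean at both times, with log2 fold changes of -0.93 ± 0.15 (adjusted p = 0.00128) and -0.89 ± 0.13 (adjusted p = 0.000318). The 4 KD samples of the smaller cluster were the highest of their groups. Within the larger cluster the changes were -1.24 and -1.19, and within the smaller one -0.36 and -0.36, the latter at 72 h with an adjusted p of 0.066. The difference between the clusters was not tested.

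Abhd5, the activator of Pnpla2, ranged from 53.8 to 64.2 scaled RPKM in NC 24 h (median 62.0) and from 40.6 to 57.6 in KD 24 h (median 52.1). At 72 h KD was very even, at 42.5 to 45.0 (median 44.0), while NC was at 60.5, 59.0, 43.8, 45.1 and 50.9. The 2 low NC values were those of the smaller cluster. The differences of -0.29 ± 0.12 (adjusted p = 0.085) and -0.22 ± 0.10 (adjusted p = 0.134) were not called over all samples. The value at 24 h passed without KD 24 h replicate 6 (-0.34, adjusted p = 0.0284), and that at 72 h within the larger cluster (-0.36, adjusted p = 0.0239). On the deposited scale the 72 h value was 0.03, of the opposite sign.

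Because all entries together sat 0.25 higher in KD than in NC at 72 h on the deposited scale (0.046 at 24 h), the members were read relative to that shift throughout. Without the scaling, 5 members were called at 72 h, with Plin5, Mgll and G0s2 lower and Plin2 (0.42, adjusted p = 0.0125) and Cidec higher, and 13157 of 16256 entries called were higher. The share of all entries called was then 29.9%, against 22.4% with the scaling. With it, 5618 of 12173 entries called were higher. None of the 10 members passed the test of a different knockdown effect at 72 h than at 24 h (limma interaction term over all 4 groups; 0.192% of 59462 entries called, 69 higher and 45 lower, against 743 higher of 773 called on the deposited scale). None of them had an unadjusted p under 0.05 in that test, a share that is not given here for all entries. On recovered reads limma-voom called 0 members, against 0.203% of all entries.

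In the control, no member was called between 24 h and 72 h (limma; 9.12% of 52848 entries called). A limma-voom fit on recovered reads also called 0 members, against 9.86% of all entries. In the limma fit 4 members had an unadjusted p under 0.05. The share of all entries at such a p is not given here, so that count is no result about the members. The unadjusted ones were Plin1 (-0.36 ± 0.12, adjusted p = 0.0904), Plin5 (0.63 ± 0.24, adjusted p = 0.126), Mgll (-0.18 ± 0.08, adjusted p = 0.209) and Abhd5 (-0.24 ± 0.10, adjusted p = 0.16). Plin5 was the only member with a higher mean at 72 h, 26.5 ± 6.98 scaled RPKM (SD, n = 5) against 17.5 ± 5.44 (SD, n = 6), and its samples overlapped between the times. No member had groups that did not overlap, against 7.72% of symbols tested. The larger cluster alone gave 0.61 for Plin5 with an adjusted p of 0.0153. The NC groups are shared with the knockdown comparisons.

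Ratios between 2 members within the same library do not depend on the scaling between libraries. Of 8 ratios in 3 comparisons, 6 passed an exact permutation test (two-sided, Benjamini-Hochberg adjusted over all 24 tests): 3 for KD against NC at 24 h, 2 at 72 h and 1 over time in the control. At 24 h the log2 ratio of G0s2 to Pnpla2 was 1.33 ± 0.15 in KD and 1.87 ± 0.13 in NC (SD, n = 6 each), a difference of -0.54 (exact p = 0.0022, adjusted p = 0.0416). All KD values were below all NC values. At 72 h this ratio differed by -0.18 (exact p = 0.377). The ratio of Mgll to Lipe was lower in KD at 24 h by 0.53 on the log2 scale (difference -0.53, exact p = 0.00866, adjusted p = 0.0416). The ratio of Plin2 to Plin1 was higher in KD at both times, by 0.68 at 24 h (exact p = 0.0108, adjusted p = 0.0433) and by 0.62 at 72 h (exact p = 0.0043, adjusted p = 0.0416), and at 72 h all KD values were above all NC values. The ratio of Cidec to Plin1 was higher in KD at 72 h by 0.56 (exact p = 0.00866, adjusted p = 0.0416). In the control, the ratio of Plin5 to Plin1 rose by 1.00 on the log2 scale from 24 h to 72 h (exact p = 0.00866, adjusted p = 0.0416). The ratios to Plin1 share its values, which rest on 49 to 209 reads per library, so they are not independent results. At 72 h, Plin2 (0.17), Cidec (0.11) and Plin1 (-0.45) were not called on their own. With 6 against 6 samples the smallest p that this test can give is 0.0022 and with 6 against 5 it is 0.0043, and the number of ratios that passed went to 0 in 18 of the 24 runs that each left out 1 library. The ratio of Abhd5 to Pnpla2, activator to lipase, differed by 0.10 at 24 h (exact p = 0.712) and by 0.48 at 72 h (exact p = 0.0693).

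**Figure D3:**
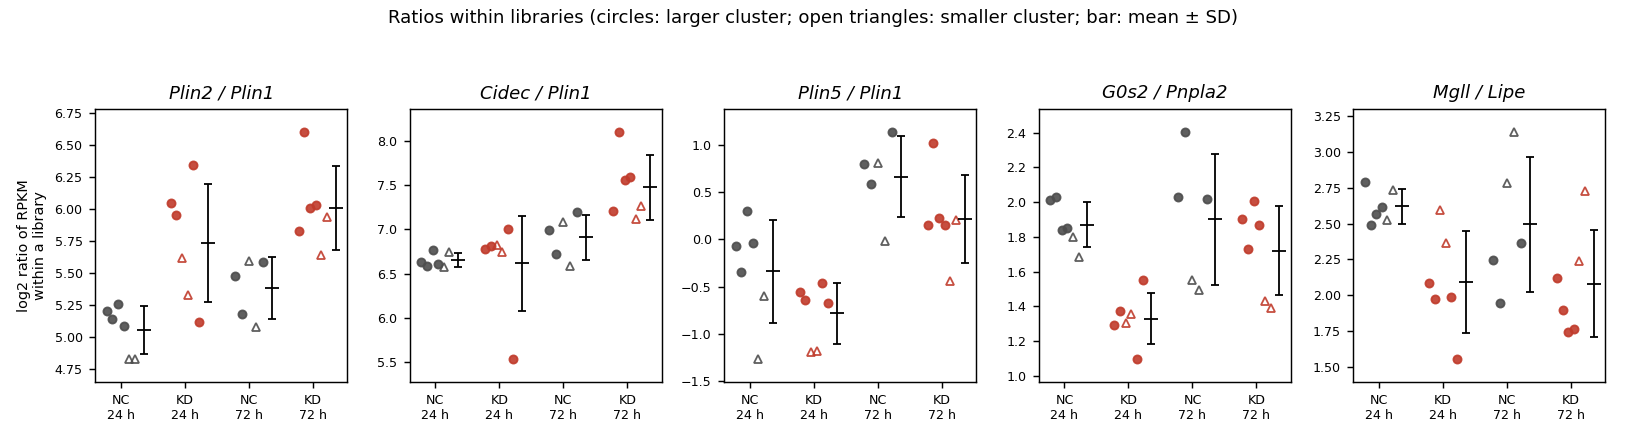
Log2 ratios of deposited RPKM between 2 members within each library (vertical axes), by group, with the mean and SD, for the 5 pairs with a ratio that passed the test. Filled circles are samples of the larger cluster and open triangles those of the smaller one; the G0s2 to Pnpla2 ratio of all 6 KD 24 h samples is below that of all 6 NC 24 h samples.

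The members had 69 transcript entries in all, which overlap and share reads. For most genes they moved together. All 10 tested entries of Mgll were called lower at both times, as were both entries of G0s2, and at 72 h all 9 tested entries of Pnpla2 and all 3 of Plin5. All 6 tested entries of Lipe were called lower at 24 h (-0.76 to -0.41). Of the 4 entries of Plin1, 1 was called lower at 72 h, the GenBank entry AK027962 (-1.57 ± 0.48, adjusted p = 0.0297), with a mean of only 3.56 RPKM over the libraries.

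Plin2 was the exception, since its 11 entries diverged at 72 h, with 2 called higher and 3 called lower. At 24 h, 5 of the 11 were called higher and 0 lower, over log2 fold changes of -0.18 to 0.77. ENSMUST00000154999, a short transcript, ends in an exon at chr4:86648386-86648579 (GRCm38, minus strand, GENCODE M21) that lies 8.0 kb beyond the 3′ end of the full-length transcript ENSMUST00000000466 (chr4:86656565-86670060). Its values were 67.8, 61.2, 60.0, 60.3 and 58.6 scaled RPKM in NC 72 h and 124 to 164 in KD 72 h (median 139.8), a difference of 1.20 ± 0.09 (adjusted p = 3.58e-06). NC was narrow and all KD samples were higher in both clusters. At 24 h the same entry was at 72.8 to 102 in NC (median 81.6) and at 56.9 to 165 in KD (median 140.0), a difference of 0.56 ± 0.21 (adjusted p = 0.0668). Over time in the control its log2 fold change was -0.43 ± 0.10 (adjusted p = 0.0101). The other entry called higher at 72 h was ENSMUST00000134437 (0.64 ± 0.21, adjusted p = 0.0379). It held 18 to 30.5 reads per sample in NC 72 h and 24 to 56 in KD 72 h. ENSMUST00000138605 differed by 0.20 at 72 h and was not called (adjusted p = 0.136). Both of these entries end within the last exon of the full-length transcript. In contrast, 3 Ensembl entries at the 5′ part of the gene were lower in KD 72 h, ENSMUST00000134094 (-0.67 ± 0.16, adjusted p = 0.00844), ENSMUST00000140382 (-0.66, adjusted p = 0.0261) and ENSMUST00000149700 (-0.66, adjusted p = 0.0264). ENSMUST00000140382 and ENSMUST00000149700 held equal numbers of reads in every 72 h sample, so they are not separate results. ENSMUST00000134094 went from 61.3 to 76.5 in NC (median 65.4) to 31.6 to 65.9 in KD (median 38.1). The main entry, NM_007408, lay between the entries called higher and those called lower, at 0.17. It had 3854.5 to 7333 reads per sample at 72 h, against 94 to 402 for ENSMUST00000154999. The entries were singled out after their values were seen. The deposited table does not tell which exon a read fell in, and the last exon but one of ENSMUST00000154999 lies within the last exon of the full-length transcript.

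**Figure D4:**
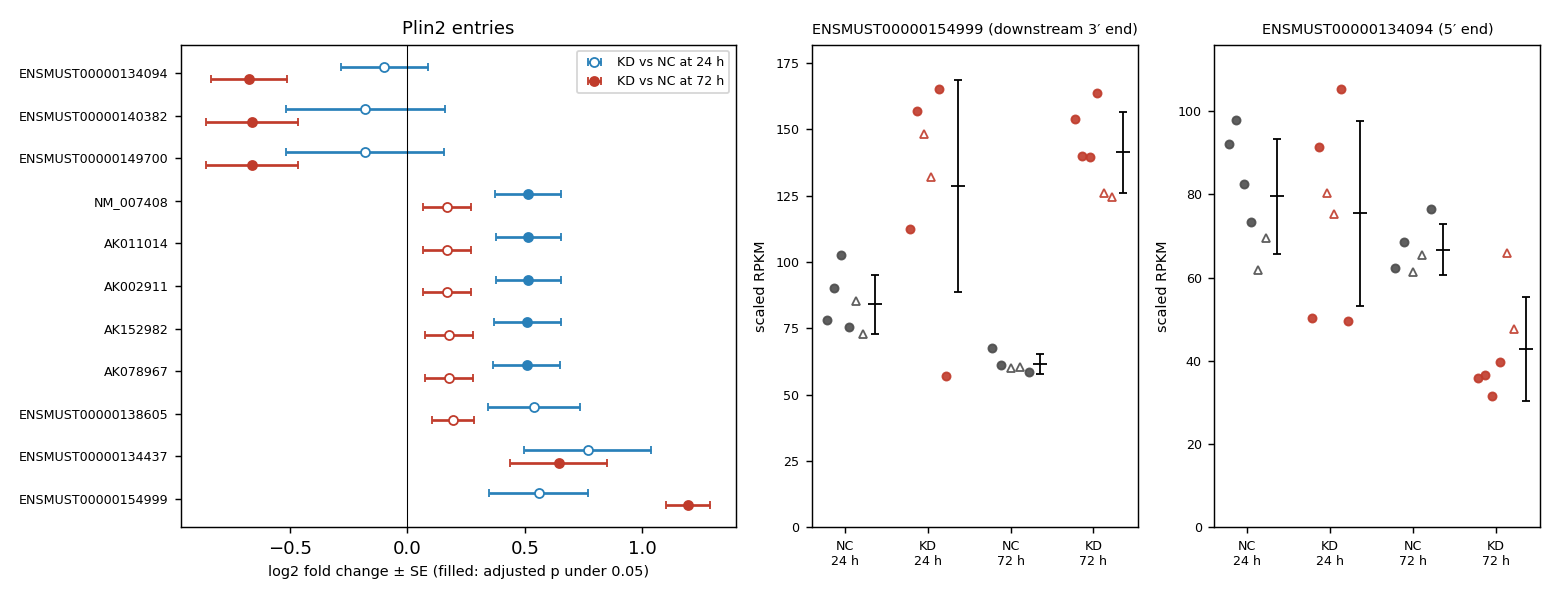
Left, log2 fold changes with SE (horizontal axis) of the 11 Plin2 entries for KD against NC at 24 h (blue) and 72 h (red), ordered from entries at the 5′ part of the gene to the downstream 3′ end, filled where the adjusted p was under 0.05. Middle and right, scaled RPKM per library of the entry with the downstream 3′ end, where all KD 72 h samples are above all NC 72 h samples, and of a 5′ entry, with the mean and SD.

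Other genes of droplet biology and of lipolysis were examined as 4 lists. Of all symbols tested, read from 1 entry each, 22.8% were called at 24 h (11.2% higher and 11.6% lower). At 72 h, 23.3% were called (10.3% higher and 13% lower). Of 22 further lipid droplet genes, 2 were called higher and 4 lower of 18 tested at 24 h, and 1 higher and 2 lower of 19 at 72 h (list medians -0.024 and 0.093). Hsd17b11, a droplet-bound dehydrogenase, was higher by 1.13 ± 0.16 at 24 h (adjusted p = 0.000457) and 1.64 ± 0.34 at 72 h (adjusted p = 0.00338), from a mean of 42.7 scaled RPKM in NC 72 h to 140.2 in KD 72 h. Cidea, the relative of Cidec that marks brown and brite fat, was lower at both times, with log2 fold changes of -0.64 ± 0.21 at 24 h (adjusted p = 0.0395) and -1.70 ± 0.21 at 72 h (adjusted p = 8.45e-05), while in the control it increased by 2.33 ± 0.23 between the times (adjusted p = 5.01e-05). Plin3, the remaining perilipin, was lower at both times (-0.52 and -0.47, adjusted p = 0.0117 and 0.0211), and Faf2 was higher at 24 h (0.46, adjusted p = 0.0166).

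Among 14 other lipases and cofactors, all tested, none was called higher and 2 lower at 24 h, and 1 higher and 5 lower at 72 h (list medians -0.18 and -0.39). Of all symbols tested, 22.8% were called at 24 h and 23.3% at 72 h. Ddhd2, a triglyceride and phospholipid lipase, was lower at both times (-0.93 ± 0.29, adjusted p = 0.0304, and -0.80 ± 0.15, adjusted p = 0.00169). Pnpla3 (-0.78 ± 0.18, adjusted p = 0.00671) and Lpl, the lipoprotein lipase that supplies fat cells with fatty acids (-0.48 ± 0.13, adjusted p = 0.0166), were lower at 72 h, and Abhd12 was higher (0.75 ± 0.19, adjusted p = 0.0122). Faf1 was lower at 24 h (-1.06 ± 0.25, adjusted p = 0.00777), at a mean of 4.79 scaled RPKM in NC.

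The upstream signalling list of 21 genes went in both directions, with 5 higher and 2 lower of 17 tested at 24 h and 3 higher and 3 lower of 16 at 72 h. The share called over all symbols tested was 22.8% at 24 h and 23.3% at 72 h. Adrb3, the β3-adrenergic receptor that starts lipolysis in mouse fat cells, was lower (-0.81 ± 0.18, adjusted p = 0.00562, and -1.07 ± 0.21, adjusted p = 0.00272), and so was Pde3b, the phosphodiesterase through which insulin restrains lipolysis (-0.62 ± 0.16, adjusted p = 0.0137, and -0.67 ± 0.14, adjusted p = 0.00327). Prkar1a, a regulatory subunit of protein kinase A, was higher (0.43 ± 0.11, adjusted p = 0.0158, and 0.79 ± 0.10, adjusted p = 0.000112), as was Gnas, the stimulatory G protein subunit (0.38 ± 0.10, adjusted p = 0.0186, and 0.42 ± 0.08, adjusted p = 0.00242). Of 7 genes that handle the released fatty acids and glycerol, 4 were called lower at 24 h and 5 at 72 h, and none higher (list medians -0.51 and -0.63). They were Slc27a1 (-1.13 and -1.36), the glycerol channel Aqp7 (-1.04 and -0.85), Cpt1b (-0.75 and -0.90) and Acsl1 (-0.51 and -0.63) at both times and Fabp4, the main fatty acid-binding protein of fat cells, at 72 h (-0.58, adjusted p = 0.00557). In this list and among the adipocyte markers, the direction was the one seen for Mgll and G0s2. Of the markers, 3 of 5 were called lower at 24 h and 4 of 5 at 72 h. The share of all symbols called lower was 11.6% and 13%. Fabp4 is in both lists, and the part of the adipocyte markers in the members' values was not tested.

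**Figure D5:**
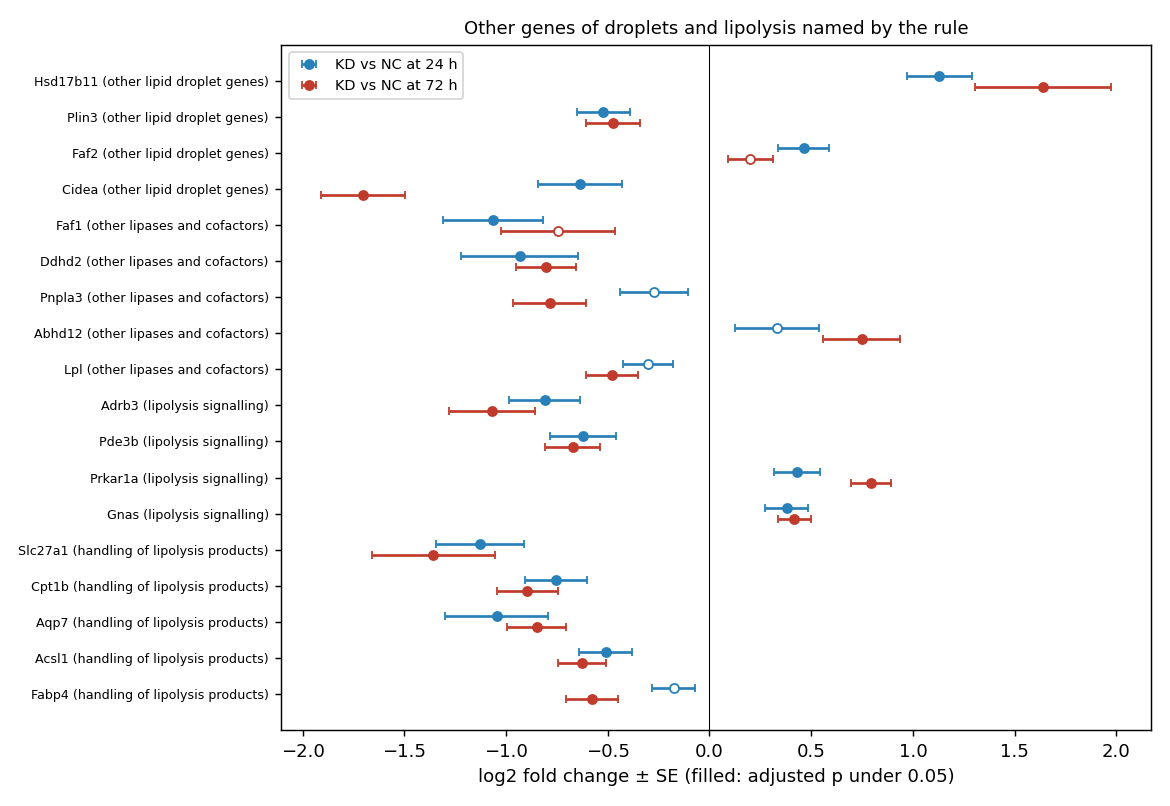
Log2 fold changes with SE (horizontal axis) of the called genes with the smallest adjusted p in the 4 further lists, for KD against NC at 24 h (blue) and 72 h (red), filled where the adjusted p was under 0.05. Hsd17b11 is farthest to the right and Cidea farthest to the left at 72 h.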

How the data were processed

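Primary brite adipocytes were profiled by BRB-seq, where barcoded oligo-dT primers capture messenger RNA and fragments from its 3′ end are read. Such reads do not scale with transcript length, so a value per kilobase understates long transcripts. The deposited values are RPKM, computed by the authors with the Genomatix suite for 168326 transcript entries; its version, the strand setting and filters were not given in the sources used here, and overlapping or antisense genes can share reads. Per the labels and column names, 0 columns were left unused. Groups and replicate numbers came from the sample titles. The study calls its replicates biological, but the labels do not say whether they were separate cultures or animals, so p-values measure the spread between these samples only.

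Whole reads and library totals were recovered from the steps of the RPKM values. Of the low values of Ensembl entries, 93.8% to 94.2% were whole within 0.05 reads, except in NC 72 h replicate 6, where 72.4% were whole and others fell on steps of 0.5 reads. Statements on depth cover counting error only. Over 276 pairs of libraries, NC 72 h replicates 2 and 3 differed by 0.371 of counting noise, the next pair by 2.02, and they were averaged. An entry was tested if its RPKM reached what 10 reads are worth in a library of median depth, in at least the number of samples of the smaller group, and if it had 15 reads over all samples. RPKM were scaled by a trimmed mean of log ratios (30% and 5%), and limma 3.58.1 (R 4.3.3; lmFit, eBayes with trend) was fitted to log2(scaled RPKM + 0.1), a scale that understates changes of low genes. Each knockdown comparison used its own groups, and the interaction all 4. Adjusted p-values are Benjamini-Hochberg values over all entries tested. Ratios used scipy 1.17.1 (exact permutation). The fitting code was also run on simulated reads drawn independently for each library. Those reads held no clusters of libraries, so that run does not bear on calls that change between the clusters.

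The members and lists were chosen with earlier results of these data known. All members were named, and of each other list the called genes with the 4 smallest adjusted p-values per time. Alternatives were another scaling or none, other pseudocounts and filters, 1 entry per gene, RefSeq messenger entries only, limma-voom on recovered reads, a replicate block, leaving out each library, and each cluster alone. The same replicate number did not pair the samples (mean correlation of deviations -0.07 at 24 h, 0.02 at 72 h, 0.01 over time).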

Additional observations from a re-analysis of the deposited data

Results flagged for a closer look

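In 2 of 40 sets of values (10 members in 4 groups), 1 sample stood apart from its group by the gap to its nearest neighbour, which chance alone does in about 1 of 20 sets. Plin1 in NC 24 h replicate 3 was at 19.3 scaled RPKM, while the other 5 samples lay close together and higher. Abhd5 in NC 24 h replicate 5 was at 53.8 scaled RPKM, below the other 5, and that library belongs to the smaller cluster.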

How the results depend on the processing

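Mgll and G0s2 were called lower at both times under every scaling, pseudocount, filter, entry choice, replicate block, left-out library and cluster tried, except in the smaller cluster at 72 h. Plin5 and Pnpla2 were called at 72 h in every run that left out 1 library, and Plin2 at 24 h likewise. The number of members called ranged from 3 to 6 at 24 h (6 without KD 24 h replicate 6) and from 4 to 5 at 72 h when single libraries were left out, and stayed at 0 for the control over time and for the interaction. The share of all entries called in those runs is not given here. With no filter on low values 2 members were called at 24 h, against 7.01% of all entries. There, Plin2 (0.50, adjusted p = 0.0755) and Lipe (-0.43, adjusted p = 0.054) were no longer called. At 72 h, 7 members were called in the larger cluster, against 24.7% of all entries. In the smaller one 1 was called (Plin2, higher by 0.50, adjusted p = 0.022), against 10.4%. In the control over time 1 member was called in the larger cluster (Plin5), 1 in the smaller cluster (G0s2, -0.34, adjusted p = 0.0374) and 1 with the replicate block (Plin5, 0.73, adjusted p = 0.046). In these settings 10.2%, 3.26% and 5.49% of all entries were called. Of the ratios, 0 passed in either cluster and 0 with the replicate block. Those designs allow too few permutations for any ratio to pass, so these counts were fixed in advance and carry no information. When single libraries were left out, 0 to 7 passed (5 without KD 24 h replicate 3 or 6, 6 without NC 72 h replicate 2, 3 or 5, 7 without KD 72 h replicate 5). With the replicate block 3 members were called at 24 h, since Lipe was lost (adjusted p = 0.104), and 4 at 72 h. All entries were called there at 16.7% and 15.1%. The call of Lipe at 24 h was also lost on the deposited scale and in either cluster, and Plin5 at 24 h was gained with a filter at 30 reads and with RefSeq messenger entries only.

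Some values changed sign in some settings, and the cause was not tested. Not all of them were near 0 in the fit to all samples. There, Pnpla2 at 24 h was -0.39, Plin1 at 72 h -0.45 and Lipe at 72 h -0.41, and each was above 0 in the smaller cluster. When 1 library was left out, Plin4 at 72 h ran from -0.10 to 0.14, over time in the control Plin2 ran from -0.0919 to 0.026 and Lipe from -0.17 to 0.11, and in the interaction Plin4 ran from -0.17 to 0.0713, Lipe from -0.16 to 0.12 and G0s2 from -0.0298 to 0.17. Log2 ratios at 24 h ran from -0.12 to 0.18 for Cidec to Plin1, from -0.0757 to 0.19 for Abhd5 to Pnpla2 and from -0.23 to 0.11 for Lipe to Pnpla2, and in the control over time from -0.0073 to 0.13 for G0s2 to Pnpla2 and from -0.0913 to 0.0241 for Abhd5 to Pnpla2. On the deposited scale Abhd5 at 72 h was 0.0271 and the interaction of Plin4 0.16. With NC 72 h replicates 2 and 3 as separate samples, Plin4 at 72 h was -0.0071, Lipe over time 0.002, the interaction of Lipe -0.045 and Abhd5 to Pnpla2 over time 0.0315. In the larger cluster, Plin2, Plin4 and Cidec at 72 h were -0.0262, -0.27 and -0.0799, Plin4, Cidec and Lipe over time 0.0225, 0.0537 and 0.27, the interaction of Lipe -0.33, Lipe to Pnpla2 at 24 h 0.21 and Abhd5 to Pnpla2 over time 0.10. In the smaller cluster, Plin1, Plin4, Cidec and Pnpla2 at 24 h were 0.0716, -0.0607, 0.19 and 0.0554, Plin1 and Lipe at 72 h 0.0475 and 0.0844, and the interactions of Plin4 and G0s2 0.59 and -0.0042. There, Cidec to Plin1, Abhd5 to Pnpla2 and Plin4 to Plin1 at 24 h were 0.12, -0.15 and -0.13, and G0s2 to Pnpla2, Lipe to Pnpla2 and Mgll to Lipe over time were -0.22, -0.43 and 0.33.

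Over all entries the smaller cluster called 1540 at 24 h, 5811 at 72 h and 1752 over time, against 11810, 12173 and 4821 in all samples. The replicate block called 2900 over time and 28 in the interaction, against 114 there, where other settings called 44 to 1837. With 1 entry per symbol 2613, 2806 and 1073 were called, and with RefSeq messenger entries only 3570, 3442 and 1399, because fewer entries were tested. Plin1 and Plin5, with 38 to 209 reads per sample, had the fewest reads of the members.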
